A study of Cucumis sativus with 4 samples.

Results

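Fruit spines, warts and trichomes of cucumber (Cucumis sativus) are controlled by a small set of genes known from mutants and natural variants, and 8 of these were followed in young fruits. They were picked by gene ID from published cucumber work, by a rule that uses no expression value, but with earlier results of these data known. All 8 were listed among the 20000 genes of the expression table. The IDs were not paired with names in the table, and 0 of the 8 IDs matched a RefSeq gene table of assembly Cucumber_9930_V3. The names used here therefore rest on the published pairing of ID and gene. That RefSeq table holds genes with the symbols GL3, TTG1 and TRY on chromosomes 6, 4 and 5, the chromosome numbers carried by the IDs of CsGL3, CsTTG1 and CsTRY, but it does not show that they are the same genes.

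RNA was sequenced from fruits of line 408, which bears long fruits, and of its near-isogenic line 409, which bears short fruits. The lines were bred to share most of their genome, and the labels describe neither the segments in which they differ nor the spines or warts of their fruits. There were 2 biological samples per line, each a pool of 3 to 5 fruits from different plants, at a fruit length of 2 to 4 cm, grown in a greenhouse and collected at the same time, with no treatment. The length range was the same for the long-fruited and the short-fruited line, and whether their fruits were at the same stage was not tested. Levels are RPM, in which a gene's read number is scaled to a library of 1000000 reads but not to the length of the gene, so levels are compared between libraries and not between genes.

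Cucumber fruit spines are multicellular trichomes that grow out of the fruit skin, and a wart forms where the tissue under a spine also bulges outward. Homeodomain-leucine zipper (HD-Zip) factors start and complete the trichome, a zinc finger factor and a WD-repeat protein act in wart formation, MYB-type factors hold initiation back, and further genes set how many spines form and how hard they become. In whole-fruit RNA, fewer cells of a type and less RNA per cell cannot be told apart. The fruit label could not be checked against tissue markers, because the table gives IDs alone.

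The libraries were first set side by side over the 17391 tested genes, those that reached 1 RPM or more in 2 or more libraries. Estimated depths were 12256000 to 13808000 reads of the listed genes. The median absolute difference on the log2(RPM + 1) scale was 0.24 within line 408 and 0.19 within line 409. Between lines it was lowest for the replicate 1 libraries, at 0.34, and highest for the replicate 2 libraries, at 0.64. The replicate 2 libraries thus stood farther apart than the replicate 1 libraries.

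In the long-fruited line all 8 regulators had higher RPM than in the short-fruited line, with both 408 libraries above both 409 libraries. Among all tested genes, 41.8% had this arrangement. The difference passed the test for 4 of the 8, which were CsGL3, NS, CsMYB6 and CsTTG1, and all 4 were higher in 408 (limma on log2(RPM + 1), with p-values adjusted by the Benjamini-Hochberg method over all tested genes and a threshold of 0.05). Of all tested genes, 17.1% passed in this direction and 10.1% in the other. The median log2 fold change of the 8 genes was 1.06, against 0.06 over all tested genes. All 8 passed the filter on low values, but CsMYB6 and CsTRY did so through the 408 libraries alone. The 8 genes were also chosen with earlier results of these data known, so these counts and the median of the 8 are descriptions. The 4 calls rest on a narrow margin. At a threshold of 0.10, chosen after the results were seen, 6 of the 8 passed, against 26.7% of all tested genes in this direction. Without the filter 0 of the 8 genes and 0 of all 20000 genes passed. In that fit 6 of the 8 and 8340 of all genes had an unadjusted limma p under 0.05. The calls were also lost when 1 library was left out, for the 8 genes as for all tested genes. Such fits have a lone library in a line, and the adjusted p values given for them below share this limit.

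**Figure D1:**
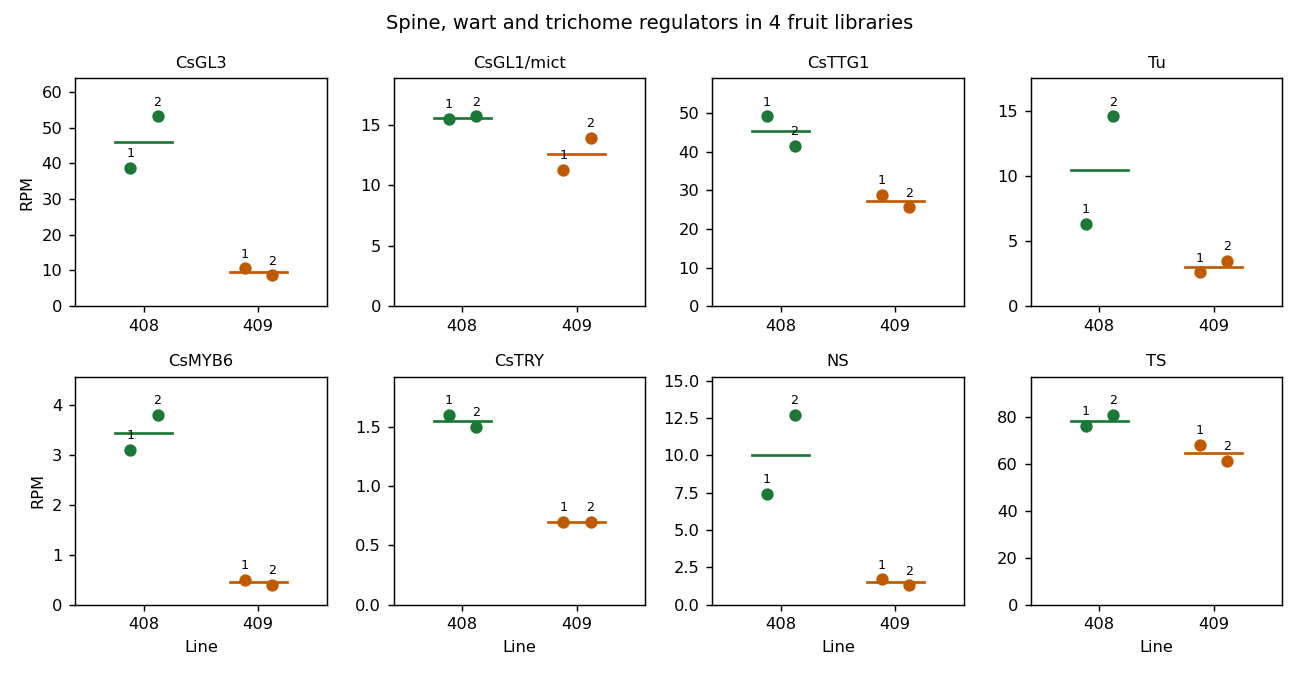
RPM of each regulator (vertical axes, each from 0) by line, with 1 point per library marked by its replicate number and a bar at the line mean (n = 2 libraries per line). Both 408 points lie above both 409 points in every panel, with the narrowest gaps for CsGL1/mict and TS and a wide spread of the 408 points for Tu and NS.

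The HD-Zip genes were taken first. CsGL3 (Csa6G514870) encodes an HD-Zip IV factor without which cucumber forms no normal trichomes. It measured 38.7 and 53.2 RPM in replicates 1 and 2 of line 408, and 10.6 and 8.6 RPM in those of line 409. The lines were widely separated, and even the lower 408 library was 3.65 times the higher 409 library. The line means were 46.0 ± 10.3 and 9.6 ± 1.41 RPM (SD, n = 2 per line), a 4.79-fold ratio. On the log2(RPM + 1) scale CsGL3 was 2.14 higher in 408, with a standard error of 0.222 and a 95% interval of 1.57 to 2.71 (limma, adjusted p = 0.0317). Its log2 fold change exceeded that of 97.6% of the tested genes. It was the largest of the 8 with a pseudocount of 1 RPM, but below that of NS at 0.5 RPM and below those of CsMYB6 and NS at 0.1 RPM. It stayed between 1.91 and 2.36 when 1 library was left out, with limma adjusted p values of 0.0896 and 0.213 without 408 replicate 1 and 2 and of 0.0633 and 0.181 without 409 replicate 1 and 2.

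CsGL1, also called mict (Csa3G748220), encodes an HD-Zip I factor, and its mutants bear only minute, poorly developed trichomes. It measured 15.5 and 15.7 RPM in line 408 and 11.3 and 13.9 RPM in line 409. The 408 libraries were nearly equal, and the higher 409 library came close to them. The means were 15.6 ± 0.141 and 12.6 ± 1.84 RPM (SD, n = 2 per line), a 1.24-fold ratio. The log2 fold change of 0.29 had a standard error of 0.184 and a 95% interval of -0.18 to 0.76 and did not pass the test (limma, adjusted p = 0.257). The interval leaves room for a difference in either direction, but not for one as large as that of CsGL3.

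Because both HD-Zip genes were read in the same libraries, their ratio does not depend on how the libraries were scaled. The RPM of CsGL3 was 2.5 and 3.39 times that of CsGL1/mict in the 408 replicates, and 0.938 and 0.619 times in the 409 replicates. These ratios are not corrected for gene length, and their change between lines is what can be read. The ratio was 3.82-fold higher in line 408 by geometric means, and the lines did not overlap. An exact permutation test of 2 libraries against 2 has a smallest p of 0.333, so this change was not tested.

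Of the wart genes, CsTTG1 passed the test and Tu did not. CsTTG1 (Csa4G097650) encodes a WD-repeat protein that promotes wart formation. It measured 49.2 and 41.6 RPM in line 408 and 28.8 and 25.6 RPM in line 409. Here the replicate 1 library was the higher one in both lines. The means were 45.4 ± 5.37 and 27.2 ± 2.26 RPM (SD, n = 2 per line), a 1.67-fold ratio. CsTTG1 was higher in 408 by 0.72 on the log2(RPM + 1) scale, with a standard error of 0.163 and a 95% interval of 0.30 to 1.13 (limma, adjusted p = 0.0376). It was the smallest difference among the 4 that passed. Without 408 replicates 1 and 2 the limma adjusted p was 0.11 and 0.213, and without 409 replicates 1 and 2 it was 0.111 and 0.222. With the replicate number as a block it was 0.0901.

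Tu (Csa5G577350), named for the tuberculate or warty fruit, encodes a C2H2 zinc finger factor that is needed for warts and is absent from the genome of non-warty cucumbers. Tu was detected in both lines, at 6.3 and 14.6 RPM in line 408 and at 2.6 and 3.5 RPM in line 409. The 408 replicates differed from each other in RPM by more than 408 replicate 1 differed from the 409 libraries. The means were 10.4 ± 5.87 and 3.05 ± 0.636 RPM (SD, n = 2 per line), a 3.43-fold ratio. The log2 fold change of 1.41 had a standard error of 0.401, a 95% interval of 0.38 to 2.43 and an adjusted p of 0.0554, which did not pass (limma). It was 0.86 without 408 replicate 2 and 1.95 without 408 replicate 1.

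The values of Tu correspond to about 79 and 202 reads in the 408 replicates and about 36 and 43 reads in the 409 replicates. The 408 replicate 2 level was 2.31 times that of replicate 1, with a 95% interval of 1.78 to 3.04 from counting error alone (exact binomial on the reads), which leaves out variation between separate pools of fruits. The gap between the 408 replicates was larger for Tu than for 98.0% of the tested genes on the log2(RPM + 1) scale. In line 409 the ratio of replicate 2 to replicate 1 was 1.34. The ratio of Tu to CsTTG1 was 0.128 and 0.351 in the 408 replicates and 0.0903 and 0.137 in the 409 replicates, so that for this ratio the lines overlapped.

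The genes that hold trichome initiation back had the lowest read numbers of the 8. CsMYB6 (Csa3G824850) encodes a MYB factor described as a repressor of fruit trichome initiation. It measured 3.1 and 3.8 RPM in line 408 and 0.5 and 0.4 RPM in line 409. The 409 values stand for about 7 and 5 reads. The means were 3.45 ± 0.495 and 0.45 ± 0.0707 RPM (SD, n = 2 per line), a 7.67-fold ratio, the largest ratio of means among the 8. The reads alone place this ratio at 7.5 with a 95% counting interval of 4.09 to 15.0. On the log2(RPM + 1) scale, which compresses low values, CsMYB6 was 1.61 higher in 408, with a standard error of 0.203 and a 95% interval of 1.09 to 2.13 (limma, adjusted p = 0.0317). With a pseudocount of 0.1 RPM the log2 fold change was 2.69 and still passed (limma, adjusted p = 0.0376). Leaving out 408 replicates 1 and 2 gave limma adjusted p values of 0.0896 and 0.213, and leaving out 409 replicates 1 and 2 gave 0.0651 and 0.181. Since the gene entered the test through line 408 alone, its call is not independent of its being high there.

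CsTRY (Csa5G139610), a small MYB-like protein described as another repressor of fruit trichome initiation, measured 1.6 and 1.5 RPM in line 408 and 0.7 RPM in both 409 libraries. The replicates of each line were nearly equal, but at about 20 and 21 reads against about 10 and 9 reads. The equal 409 values reflect rounding to 1 decimal, which makes their spread appear to be 0. The ratio of means was 2.21, and the reads gave a ratio of 2.13 with a 95% counting interval of 1.21 to 3.89. The log2 fold change of 0.58 had a standard error of 0.188, a 95% interval of 0.10 to 1.07 and an adjusted p of 0.0707, which did not pass (limma). It passed without the mean-variance trend, at an adjusted p of 0.0488. The RPM of CsMYB6 was 1.94 and 2.53 times that of CsTRY in the 408 replicates and 0.714 and 0.571 times in the 409 replicates. That ratio was 3.47-fold higher in line 408, without overlap and not tested.

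The last pair of genes act on spine number and texture. NS (Csa2G264590), the gene of the numerous spines locus, encodes an auxin transporter-like protein, and its lower expression has been linked to dense spines. It measured 7.4 and 12.7 RPM in line 408 and 1.7 and 1.3 RPM in line 409. The 409 values correspond to about 23 and 16 reads. Both 408 libraries lay far above the 409 libraries, with a smallest ratio of 4.35 between single libraries. The means were 10.1 ± 3.75 and 1.5 ± 0.283 RPM (SD, n = 2 per line), a 6.7-fold ratio, with a 95% counting interval of 4.82 to 9.73. NS was 2.11 higher in 408 on the log2(RPM + 1) scale, with a standard error of 0.297 and a 95% interval of 1.35 to 2.86 (limma, adjusted p = 0.0317). Its log2 fold change exceeded that of 97.5% of the tested genes. It was 2.46 without 408 replicate 1 and 1.75 without 408 replicate 2, and the limma adjusted p was 0.0896 and 0.213 there and 0.0732 and 0.181 without 409 replicates 1 and 2. The 408 replicates of NS differed 1.72-fold, a gap larger than that of 92.3% of the tested genes on the log2(RPM + 1) scale.

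TS (Csa1G056960), the tender spines gene, encodes a lectin receptor kinase that acts in the growth and hardness of the spine. It measured 76.2 and 81.0 RPM in line 408 and 68.1 and 61.3 RPM in line 409. The means were 78.6 ± 3.39 and 64.7 ± 4.81 RPM (SD, n = 2 per line), a 1.21-fold ratio. Counting error was small for this gene, with an interval of 1.14 to 1.29 for the ratio. The log2 fold change of 0.28 had a standard error of 0.138, which limma derives partly from the spread of other genes, and a 95% interval of -0.07 to 0.63, and did not pass the test (limma, adjusted p = 0.172). NS relative to TS was 0.0971 and 0.157 in the 408 replicates and 0.025 and 0.0212 in the 409 replicates, a 5.36-fold higher ratio in line 408, without overlap and not tested.

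**Figure D2:**
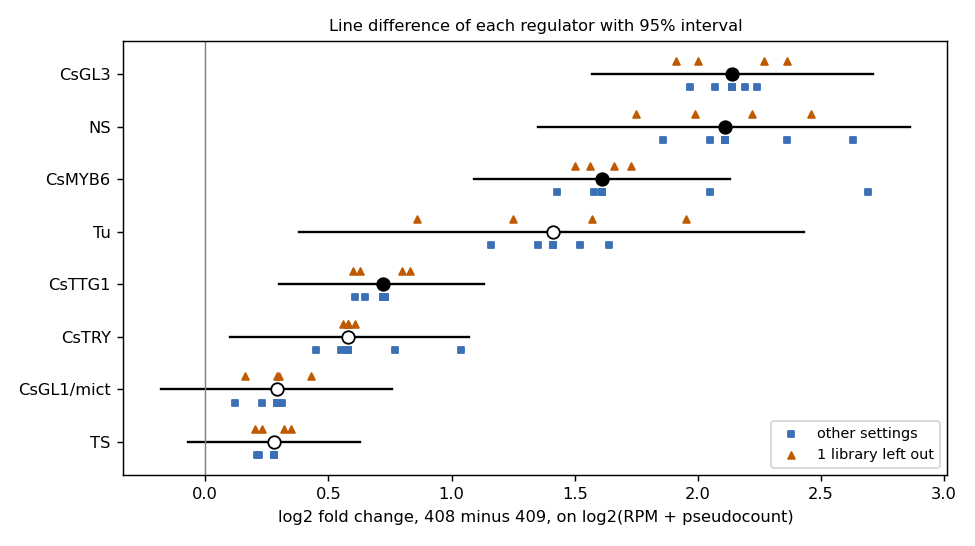
Log2 fold change of each regulator, 408 minus 409 (circles, filled where the adjusted p is under 0.05), with the 95% interval from limma (lines). Squares give the value under other pseudocounts, filters, scalings and fits, and triangles the value with 1 library left out. All lie above 0, from 0.12 for CsGL1/mict to 2.69 for CsMYB6, a sign that only the scalings could have changed.

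Set in order of their log2 fold change with the pseudocount of 1 RPM, the genes ran from CsGL3 at 2.14 and NS at 2.11 through CsMYB6 at 1.61, Tu at 1.41, CsTTG1 at 0.72 and CsTRY at 0.58 to CsGL1/mict at 0.29 and TS at 0.28. Each neighbour in this order had an interval overlapping the next. The interval of Tu overlapped all the others. The order depended on the pseudocount. At 0.5 RPM, NS at 2.36 lay above CsGL3 at 2.19. At 0.1 RPM, CsMYB6 at 2.69 came first, before NS at 2.63 and CsGL3 at 2.24, and CsTRY at 1.04 lay above CsTTG1 at 0.73. The ratios of means also put CsMYB6 first, at 7.67, then NS at 6.7 and CsGL3 at 4.79. Under each of these measures the upper end held a gene described as promoting trichomes, CsGL3, beside genes described as limiting their start or number, CsMYB6 and NS. The place of CsMYB6 rests on about 7 and 5 reads in the 409 replicates, with a 95% counting interval of 4.09 to 15.0 for its ratio. It also entered the test through line 408 alone.

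**Figure D3:**
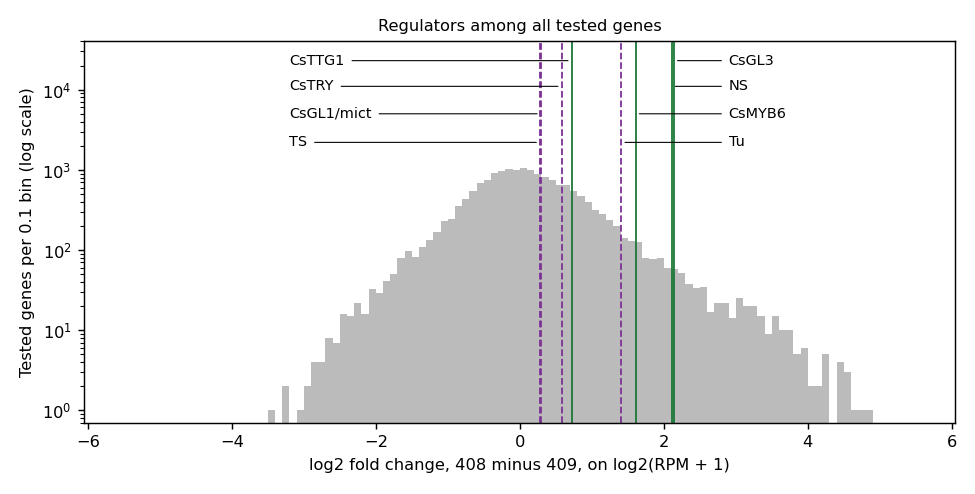
Number of tested genes (vertical axis, log scale) by log2 fold change on log2(RPM + 1), 408 minus 409 (horizontal axis, bins of 0.1). Vertical lines mark the regulators, solid where the adjusted p is under 0.05 and dashed where it is not; CsGL3 and NS lie in the upper tail at 2.14 and 2.11, and TS and CsGL1/mict close to the centre.

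The order of the 4 libraries was then compared between the genes, because the replicate 2 libraries stood farther apart. CsGL3, CsMYB6, NS and TS ran upward from 409 replicate 2 through 409 replicate 1 and 408 replicate 1 to 408 replicate 2. This order was held by 29.4% of all tested genes and by 84.1% of the genes that passed as higher in 408. CsTTG1 had 408 replicate 1 at the top in place of replicate 2. That order was held by 4.81% of the tested genes, or 837 of the 7277, and by 5.47% of those that passed as higher in 408. Tu and CsGL1/mict had 409 replicate 1 in place of replicate 2 at the bottom and 408 replicate 2 at the top. Such an order was held by 4.55% of the tested genes, or 792 of the 7277. CsTRY was tied in line 409. The step between the 408 replicates of CsMYB6 was 1.21-fold with a 95% counting interval of 0.781 to 1.88. Their order was thus not resolved at this depth. Each other ordered gene also had such an interval spanning 1 in 1 line or both. In line 409 it was 0.622 to 1.04 for CsGL3, 0.385 to 1.54 for NS, 0.765 to 1.03 for CsTTG1 and 0.841 to 2.15 for Tu. In line 408 it was 0.974 to 1.16 for TS and 0.83 to 1.23 for CsGL1/mict. The intervals excluded 1 for CsGL3, NS, CsTTG1 and Tu in line 408 and for TS in line 409. With 2 pools per line, no order within a line was tested. The part of the difference between replicate pools in the line differences was not tested.

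Genes outside the set with the most similar values were sought for the extremes of the order, as the gene with the smallest distance between centred log2(RPM + 1) values over the 4 libraries. The gene nearest to CsGL3 was Csa4G006470, at a distance of 0.0755, with 4.3 and 6.2 RPM in line 408 and 0.5 and 0.2 RPM in line 409. The gene nearest to NS was Csa3G165080, at a distance of 0.0455, with 3.4 and 6.4 RPM in line 408 and 0.4 and 0.2 RPM in line 409. With a pseudocount of 1 RPM, a match on this scale is not a match of the ratio between lines. Csa6G006880 was nearest to TS, at 0.0215, and Csa1G030620 to CsGL1/mict, at 0.044. Within a distance of 0.2 lay 1584 genes for TS and 339 for CsGL1/mict, against 11 for CsGL3 and 10 for NS. With 4 libraries such matches are descriptions, and none of these IDs is paired with a name in the sources used here.

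Since the lines may carry different alleles of a whole stretch of chromosome, each regulator was set beside the 5 nearest tested genes on either side in the order of the IDs, which was taken as the order along the chromosome. Of these 80 neighbours, 24 passed the test, or 30.0%, with 17 higher and 7 lower in 408. Among all tested genes 27.2% passed in either direction. The neighbours' median log2 fold change was 0.03. The neighbours of CsGL3 and NS passed in 5 of 10 cases each, those of CsGL1/mict, CsMYB6 and CsTRY in 3 of 10, those of CsTTG1 and TS in 2 of 10 and those of Tu in 1 of 10. Without either 408 replicate or either 409 replicate none of the 80 neighbours passed, with 20 to 35 at an unadjusted limma p under 0.05.

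Neighbours that passed were found in both directions around 6 of the 8 genes. Among all tested genes 17.1% passed as higher and 10.1% as lower in 408. How often 10 neighbours of other genes include both directions was not counted, so the 6 of 8 is a description. Around CsGL3 the closest neighbours on both sides were higher in 408, with log2 fold changes of 1.22 and 1.93 before it and 1.57 and 1.11 after it. All but the second of these passed the test (limma, adjusted p = 0.10 for that gene), while the fourth gene after it was lower in 408, at -1.18. NS lay between neighbours of both directions, from -2.60 to 1.99, and the genes directly beside it, at 0.23 and -0.14, did not pass. CsMYB6 had neighbours at 1.58 and 1.08 on either side that passed as higher, followed by a gene at -1.10 that passed as lower. CsGL3, NS, CsMYB6 and Tu each had a larger log2 fold change than all 10 of their neighbours. Their log2 fold changes also exceeded those of 97.6%, 97.5%, 95.1% and 93.5% of all tested genes. Whether the neighbours differed from other genes in this was not tested. For Tu the neighbours ran from -1.96 to 0.54. Without a stated strand setting, reads of overlapping neighbours cannot be told apart.

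**Figure D4:**
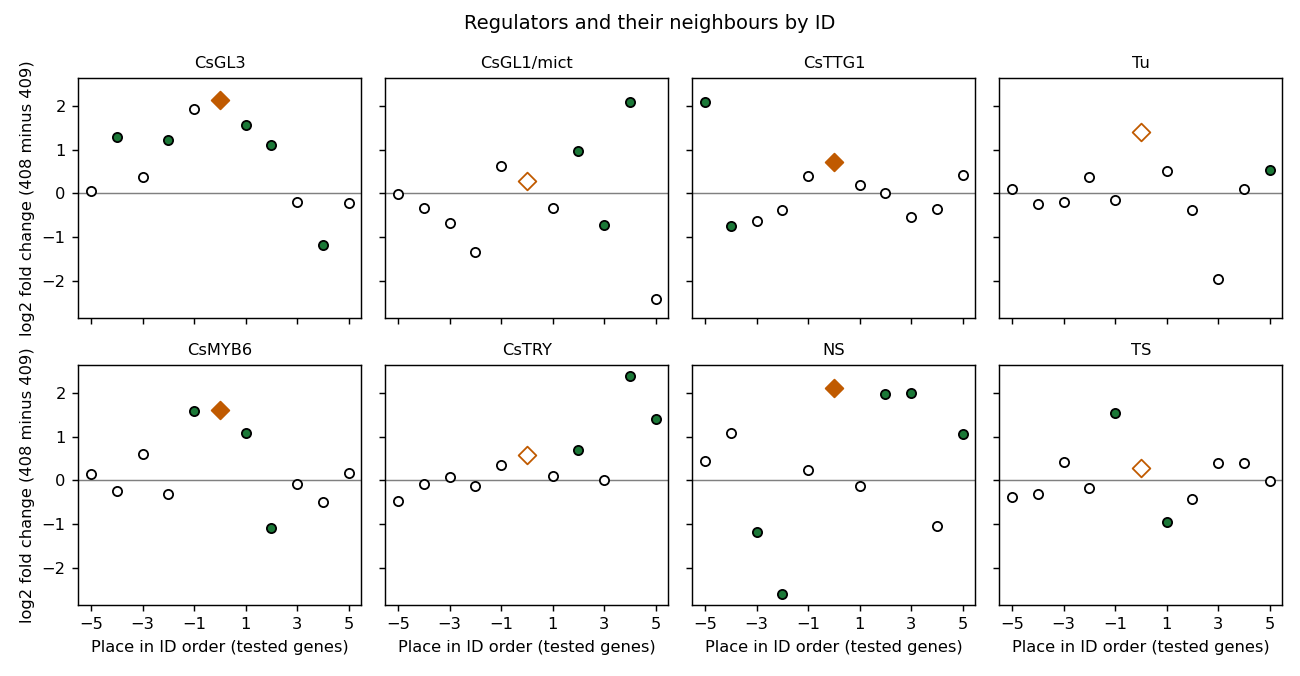
Log2 fold change, 408 minus 409 (vertical axis), of each regulator (diamond) and of the 5 nearest tested genes on either side in ID order (circles; horizontal axis, place in the order). Filled symbols have an adjusted p under 0.05; the 4 genes closest to CsGL3 are all above 0, while NS has neighbours from -2.60 to 1.99.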

How the data were processed

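The authors aligned reads with TopHat, per the submitters' processing notes, and deposited RPM values rounded to 1 decimal, per the file headers. Per the labels' protocols, the libraries were stranded and made from poly(A) RNA. The genome build, the counter and its strand option were not given in the sources used here. All 4 columns were matched to samples by name.

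Genes that reached 1 RPM or more in 2 or more libraries were compared as log2(RPM + 1) with limma 3.58.1 in R 4.3.3, with a mean-variance trend and no covariate, with Benjamini-Hochberg adjustment over 17391 genes. Limma's pooling added 3.08 prior degrees of freedom, and 1477 genes share the smallest adjusted p of 0.0317. Depth was estimated from the steps of the low RPM values. A read is worth 0.0724 to 0.0816 RPM, less than the last printed decimal, so read numbers are approximate and no count model was fitted across genes. Counting intervals are exact (95%) and cover counting error only. Both procedures were tested on simulated data. For limma, the simulated libraries varied independently, without the unequal gaps between libraries described above. That test therefore does not show how limma performs with such gaps. The labels do not say whether pools came from separate plantings, so the p-values rest on the spread between these pools. Limma combines that spread for each gene with the spread of other genes.

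The rule for the members uses published gene IDs and no expression value, but the members and tests were chosen with earlier results of these data known. All 8 are described, with the nearest-pattern gene of the 2 with the highest and the 2 with the lowest log2 fold change. A list of further trichome genes by product name could not be formed, because 0 IDs matched among 23999 RefSeq genes. Python 3.11.15 with scipy 1.17.1 was used otherwise.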

Additional observations from a re-analysis of the deposited data

How the results depend on the processing

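All settings but the 0.10 threshold on the adjusted p were listed in advance of these fits. In all 94 alternative values of the 8 log2 fold changes the direction stayed higher in 408. Because both 408 libraries lay above both 409 libraries for all 8, only the median-of-ratios and quantile scalings could have reversed it. Of the 94 values, 72 stayed on the same side of the threshold, 21 lost the call and 1 (CsTRY without the trend) gained it. The number of the 8 genes that passed was 4, and 3 to 5 under both other pseudocounts, both rescalings, the 5 RPM filter (where CsMYB6 and CsTRY were not tested), the fit without the trend and the replicate block. The median of all genes, 0.06 as deposited, was -0.01 after median-of-ratios and -0.07 after quantile scaling. Without a filter the count was 0 for the 8 genes and 0 for all genes, at a smallest adjusted p of 0.0674, with 6 of the 8 and 8340 of all genes at an unadjusted limma p under 0.05, and the cause was not tested. The fits that leave out 1 library gave 0 to 0 of the 8 genes, 0 to 0 of all genes and 0 to 0 of the neighbours, in fits with fewer samples that assume the spread of the complete pair for the lone library; 3974 to 7264 of all genes then had an unadjusted limma p under 0.05. At the 0.10 threshold 6 of the 8 genes and 7840 of all genes passed. With the replicate block 3 of the 8 genes passed, CsTTG1 being lost, and 1356 of all genes against 4738. No label ties the replicate number to a batch or day, and libraries with the same number deviated from their line means with a correlation of -0.48 over genes, so the block rests on the number alone. At about 5 to 23 reads per library, depth limits CsMYB6 and NS in line 409 and CsTRY in both lines.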
